A study of Drosophila melanogaster with 2 samples.

Results

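Binding of CG10366 was examined at 36 genes of neuronal differentiation and synaptic function, among 13986 protein-coding genes of the fly annotation. The genes were taken from a list of symbols, each of which matched 1 gene in Ensembl release 115 for the dm6 assembly. A gene was called marked where the summit of a peak lay inside its span or within 500 bp of one of its annotated start sites, and that second case was called a promoter summit. The chromatin came from whole Drosophila melanogaster embryos aged 0 to 24 h, of the strain CG10366-GFP, which has an insertion at CG10366 and makes that protein fused to eGFP. Fragments of 200 to 800 bp were precipitated with an antibody against GFP. Both libraries, biological replicates 1 and 2, carry that fusion and form 1 group, with no second genotype, treatment or stage; control libraries were not analysed here. Whole embryos mix neurons with all other tissues, so strong binding in a small share of cells and weak binding in many cannot be told apart.

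Neurons of the fly arise from neuroblasts, stem cells that proneural transcription factors single out in the ectoderm. A neuroblast divides unequally and passes fate regulators such as Prospero to its smaller daughter, whose progeny become neurons or, where the gene gcm is active, glia. Postmitotic neurons then express RNA-binding proteins of the ELAV family, ion channels, the vesicle release machinery and the enzymes and transporters of their transmitter.

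Peaks were filtered by the authors on the irreproducible discovery rate (IDR), an estimate of the share of peaks that do not repeat between the peak rankings compared. Lists of single libraries carry an IDR too, so a passing peak need not have passed in both biological replicates. Of the 36 genes, 13 were marked in the series-wide list of peaks that passed the authors' IDR threshold. That was 36.1% (95% Wilson interval 22.5 to 52.4%, counting error only), against 24.8% of all protein-coding genes under the same rule. The marked genes held 23 of the 5153 passing summits. Only elav, scrt and Fas2 had such a promoter summit, 3 of 36 genes (8.33%, 2.87 to 21.8%), where 19.4% of all protein-coding genes had one. The strongest summits, by the authors' signal value per peak, were those of brat (769) and elav (762), which ranked 159 and 163 among the passing peaks. At the other 23 genes no passing summit was found: 17 had only candidates that failed the IDR threshold, and 6 (sc, ase, dpn, gcm, cac and nrv3) had no candidate at all. Of these 6 genes, sc, ase, dpn and gcm were under 5 kb long.

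**Figure D1:**
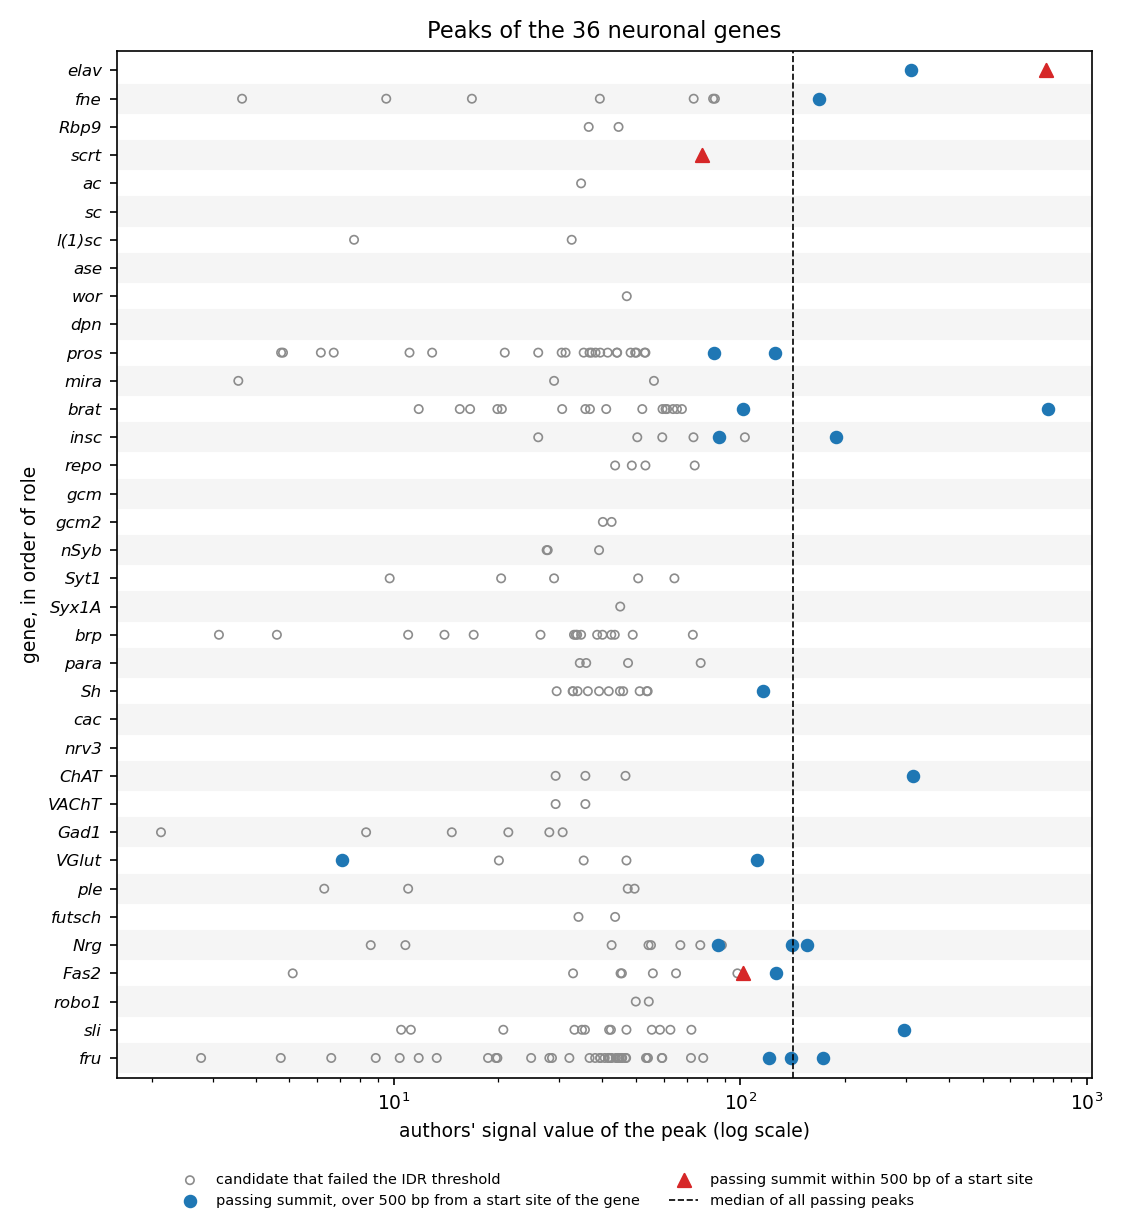
Signal of every candidate peak (x axis, log scale) at each of the 36 genes (y axis, in order of role), from the series-wide lists. Filled circles and red triangles are the 23 passing summits, open circles are failing candidates, and the dashed line is the median of all passing peaks, 142. The brat and elav summits stand alone at the right, and no passing summit appears at the proneural, glial or vesicle release genes.

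The sequences at the summits are shown for the strongest summit of 8 marked genes, to set their base composition beside that of candidates that failed. They were taken in order of signal, passing over sli, insc and pros, whose windows are not printed here and had 24.8%, 28.7% and 53.5% GC within 50 bp of the summit. Each is 100 bp of the plus strand of dm6, with the summit in the middle, read from the RefSeq copy of that assembly. Capitals mark any match, on either strand, to the E-boxes CAGCTG and CAGGTG, to GAGAG, to CGATA or to a run of 6 A.
brat (chr2L:19165103-19165202): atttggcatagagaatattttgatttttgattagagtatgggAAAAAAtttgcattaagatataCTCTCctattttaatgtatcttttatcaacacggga
elav (chrX:523431-523530): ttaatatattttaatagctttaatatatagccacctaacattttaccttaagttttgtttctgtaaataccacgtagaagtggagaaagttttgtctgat
ChAT (chr3R:18719908-18720007): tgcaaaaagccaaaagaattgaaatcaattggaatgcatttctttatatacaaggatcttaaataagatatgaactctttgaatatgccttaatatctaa
fru (chr3R:18508414-18508513): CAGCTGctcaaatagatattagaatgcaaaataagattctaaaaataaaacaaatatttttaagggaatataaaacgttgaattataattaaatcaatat
fne (chrX:12925955-12926054): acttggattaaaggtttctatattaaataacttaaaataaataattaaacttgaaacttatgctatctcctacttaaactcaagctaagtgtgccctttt
Nrg (chrX:8542132-8542231): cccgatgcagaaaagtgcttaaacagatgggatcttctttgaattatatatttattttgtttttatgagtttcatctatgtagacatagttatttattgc
Fas2 (chrX:4172281-4172380): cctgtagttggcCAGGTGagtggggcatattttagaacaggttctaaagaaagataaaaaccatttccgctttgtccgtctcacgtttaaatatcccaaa
Sh (chrX:18004324-18004423): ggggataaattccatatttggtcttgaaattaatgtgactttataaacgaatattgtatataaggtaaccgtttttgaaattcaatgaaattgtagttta

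Of the 8 windows printed, 7 were rich in A and T: their GC content was 20% at fru, 26% at ChAT, fne and Sh, 27% at brat and elav, and 29% at Nrg. The window at Fas2 had 41%. Runs of A and T alone reached 18 bases at fne, 17 at Nrg and 16 at elav. For comparison, the following 3 windows lie at the strongest failing candidate at a start site of 3 genes with no passing summit, taken in order of signal but passing over robo1. They belong to the glial regulator repo, the vesicle protein gene Syt1 and the neuroblast gene wor.
repo (chr3R:18235969-18236068): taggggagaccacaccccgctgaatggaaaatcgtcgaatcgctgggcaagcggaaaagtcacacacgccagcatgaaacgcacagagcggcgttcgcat
Syt1 (chr2L:2800130-2800229): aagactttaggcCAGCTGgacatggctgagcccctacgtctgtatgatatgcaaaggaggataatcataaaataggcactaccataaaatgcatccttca
wor (chr2L:15425799-15425898): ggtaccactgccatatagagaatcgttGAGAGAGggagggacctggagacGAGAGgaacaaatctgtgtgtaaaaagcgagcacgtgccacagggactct

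CAGCTG occurs in the Syt1 window and GAGAG in that of wor. These failing windows held 57%, 43% and 52% GC, and their longest A and T runs were 5, 8 and 6 bases. The start-site candidate of robo1, whose window is not printed, was stronger than that of wor (54.4 against 47) and had 30.7% GC, within the range of the passing windows printed. These windows do not stand for the strongest failing candidates of the neuronal genes. Those with a signal above the 73.8 of repo were mostly rich in A and T. GC content was 30.7% in insc (signal 103), 21.8% in Fas2 (98) and 24.8% in fru (78.1). Candidates in Nrg (88.4 and 76.6) had 25.7% and 27.7%, and one in fne (83.4) had 27.7%. Another in fne (84.4) had 42.6%, and the one in para (76.8) had 55.4%. Over all 23 summits of the neuronal genes, the median GC content 50 bp to either side was 29.7%, with a range of 19.8 to 57.4%. The median was 32.7% over all passing summits and 46.5% over all failing candidates, so 15 of the 23 lay under the first of these values and 20 under the second. The exceptions above the failing median were the summit in the first intron of elav (57.4%), the one in the 3' UTR of pros (53.5%) and the weaker of the pair in VGlut (52.5%). Widening the window to 100 bp to either side raised the median to 33.3%.

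**Figure D2:**
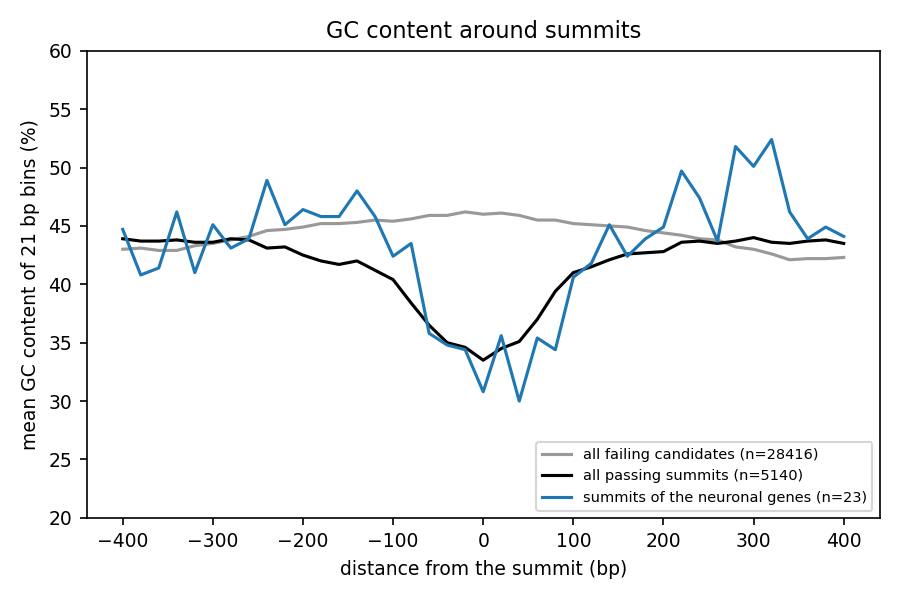
Mean GC content (y axis, percent) of 21 bp bins against distance from the summit (x axis, bp), for the 23 neuronal summits, all 5140 passing summits on the main arms and all 28416 failing candidates there. At the summit the neuronal line falls to 30.8%, from 44.7% at 400 bp upstream on the plus strand, and the line of all passing summits to 33.5%, while that of failing candidates stands at 46%.

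None of the short motifs searched was present at most summits. CAGCTG, an E-box form that proneural factors bind, occurred within 50 bp of 2 of the 23 summits, in fru and sli (8.7%), against 3.52% of all 5140 passing windows and 5.74% of failing ones. CAGGTG, a form bound by Snail-family proteins, occurred at 1, in Fas2 (4.35%, against 2.57% of passing and 4.93% of failing windows). GAGAG was found at 4 summits, in brat, elav and sli (17.4%, against 8.79% and 12.5%), CGATA at 2, in VGlut and pros (8.7%, against 14.9% and 10.8%), and the run of 6 A at 4 (17.4%, against 27.2% and 16.6%). The longest run of A and T had a median of 10 bases both here and over all passing windows, against 7 in failing ones.

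The share of marked genes rose with gene length among all genes, and the neuronal genes were long. Their median span was 13544 bp, against 2162 bp for all protein-coding genes. It was 37798 bp for the 13 marked genes and 6170 bp for the 23 others. Among genes under 5 kb, 0 of 11 neuronal genes were marked (0%, up to 25.9%), where 18.2% of all such genes were. From 5 to 20 kb, 4 of 11 were marked (36.4%, against 39.2%), from 20 to 50 kb 4 of 7 (57.1%, against 55.2%), and at 50 kb or more 5 of 7 (71.4%, against 62.6%). Within each length class the share in all genes lay inside the interval of the neuronal genes, below 20 kb with the neuronal share the lower value and above it the higher one. In the same classes, from short to long, 0 of 11, 2 of 11, 0 of 7 and 1 of 7 neuronal genes had a promoter summit. Among all protein-coding genes 17.1%, 27.4%, 24.6% and 23.6% had one. Per length, the neuronal spans held 21 summits inside 1002444 bp, or 20.9 per Mb, against 33.3 per Mb over the spans of all protein-coding genes. These densities were not matched for gene length, so they do not show a difference beyond that in length.

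**Figure D3:**
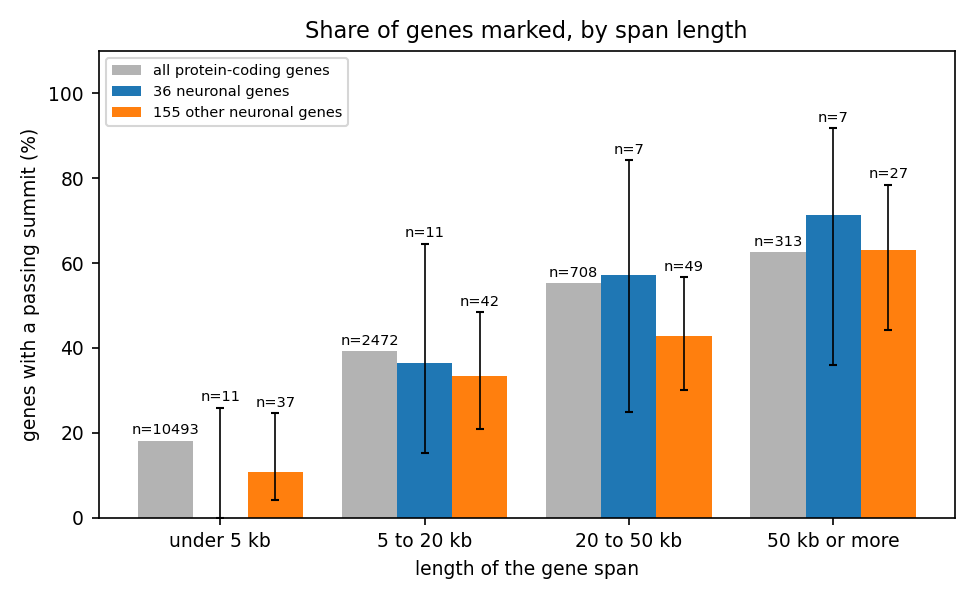
Share of genes with a passing summit (y axis, percent) by length of the gene span (x axis), for all protein-coding genes (grey), the 36 neuronal genes (blue) and 155 other neuronal genes (orange), with n above each bar. Error bars are 95% Wilson intervals for both neuronal sets. The share rises with span in all 3 sets, and no neuronal gene under 5 kb of the 36 is marked.

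Most candidates at these genes failed the threshold. The series-wide lists held 216 candidates in the 36 genes, of which 23 passed (10.6%), against 15.2% of all 33870 candidates. Candidates were counted as deposited, and some intervals overlap, as at Gad1, so counts per gene can exceed the number of separate regions. At start sites, 18 genes had a candidate within 500 bp of a start site and 3 of them had a passing one, while 45.6% of the 5950 protein-coding genes with such a candidate did. Failing candidates in the neuronal genes had a median signal of 39.3, near the 38.4 of all failing ones. The strongest of them was in an intron of insc (signal 103, IDR 0.0695). Closest to the threshold on either side were the 3' UTR summit of insc, which passed with a −log10 IDR of 2.01, and a candidate in an intron of Fas2, which failed with 1.96 (signal 98, IDR 0.0111). Replicate 1's own thresholded list held peaks at 10 of the failing candidates, among them the intronic ones of insc and Fas2 named here. Replicate 2's list held peaks at 0 of them.

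The summits lay mostly in introns. Introns held 19 of the 23 (82.6%, 62.9 to 93%), against 48.8% of all passing summits. The remaining ones lay in a 3' UTR (pros and insc), in the exon of a non-coding gene (ChAT) and in intergenic sequence (scrt). Of all passing summits 38.7% were intergenic, a class that the rule admits only within 500 bp of a start site. The comparison with 48.8% is therefore unlike. The genes marked were all over 5 kb long, and among all protein-coding genes of that length 74.6% of summits were intronic, inside the interval above. Of those summits 35% lay within 500 bp of a start site, against 13% here. The median distance to the nearest start site of the same gene was 5002 bp, against 1526 bp for all protein-coding genes over 5 kb. Summits in other neuronal genes over 5 kb, from the wider list described below, were placed much as here. Of their 133 summits, 85.7% were intronic and 21.8% lay within 500 bp of a start site, at a median distance of 5065 bp. Beyond the minimum of 5 kb, these sets were not matched for length. The rule's window of 500 bp fell between Fas2 (247 bp), elav (255 bp) and scrt (368 bp) on the inside and the second elav summit (585 bp) and brat (714 bp) on the outside. For 10 of the 23 summits the nearest start site belonged to another gene.

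**Figure D4:**
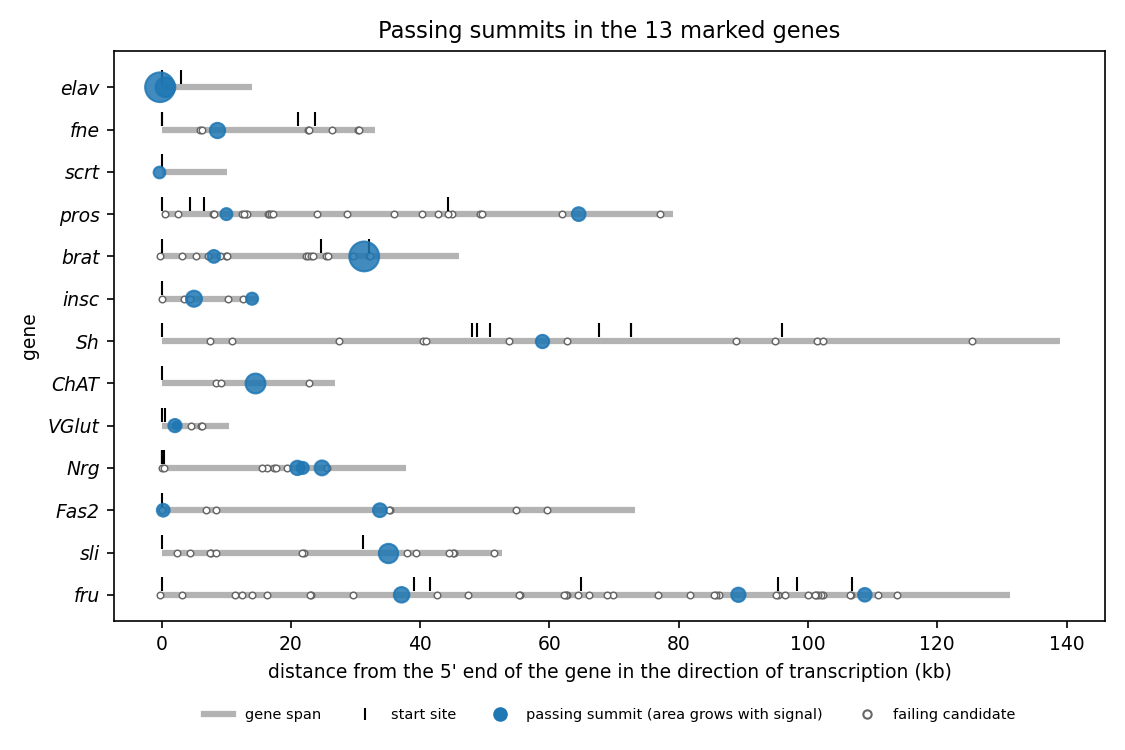
Position of summits along the 13 marked genes (x axis, kb from the 5' end of the gene in the direction of transcription; 1 row per gene). Grey bars are gene spans, ticks are start sites, open circles are failing candidates, and blue circles are passing summits whose area grows with signal. The largest circles lie at the 5' end of elav and near an internal start of brat; those of scrt and Fas2 at the 5' end are small.

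Replicate 1's own thresholded list, of 4876 peaks, held peaks at 22 of the 23 summits (95.7%), where it held 85.1% of all passing peaks. Replicate 2's, of 3378 peaks, held 13 (56.5%), where it held 64.4% of all. Both lists held 12 (52.2%, against 57.9% of all passing peaks), replicate 1's alone held 10, and replicate 2's alone held 1, the intronic summit of pros. By gene, 14 were marked in replicate 1's list and 9 in replicate 2's, where 23.9% and 19.3% of all protein-coding genes were. Replicate 1 added Syt1 to the 13 genes, and replicate 2 lacked scrt, Sh, VGlut and Fas2. Promoter summits were found at 5 genes in replicate 1 (elav, scrt, Syt1, Fas2 and fru) and elav alone in replicate 2, where the shares of all protein-coding genes were 18.4% and 14.8%. On the scale of each library's own list, the ratio of signal in replicate 1 to that in replicate 2 had a median of 1.36 over the 23 summits and of 1.39 over 4966 passing peaks. Read depth is not part of the lists, and its part in this difference was not tested.

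**Figure D5:**
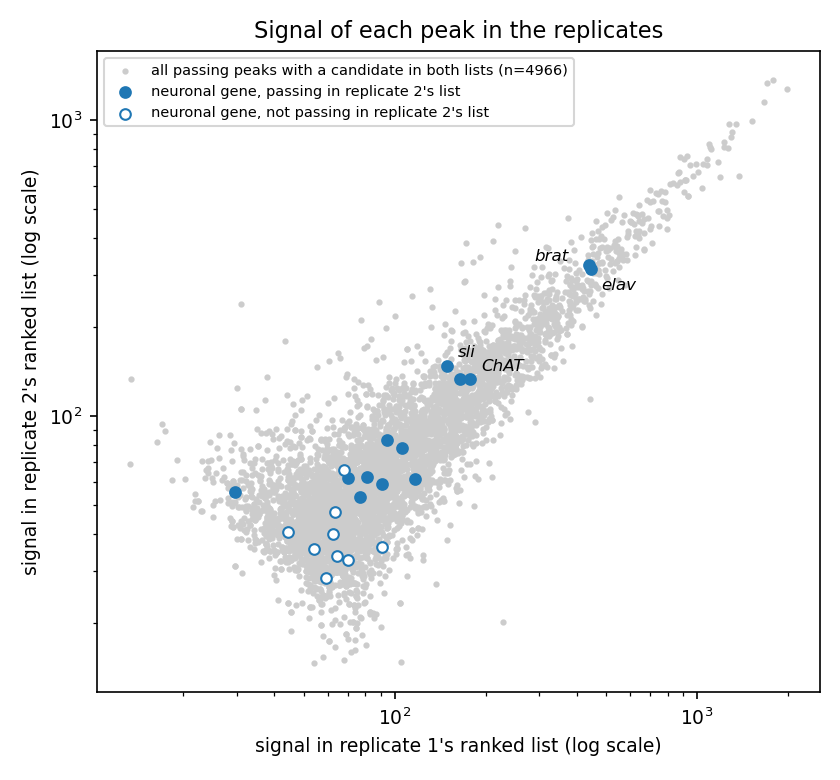
Signal of each peak in the ranked list of replicate 1 (x axis) and of replicate 2 (y axis), both on log scales, with all passing peaks in grey. Filled blue circles are neuronal summits that passed in replicate 2's own list and open ones did not; the weaker VGlut summit, which matches the same replicate peaks as its neighbour, is not drawn. The summits of brat, elav, ChAT and sli rank high in both, and the open circles gather at low signal.

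Among the 3 genes of the ELAV family, elav and fne were marked. The genes elav and Rbp9 are between 5 and 20 kb and fne between 20 and 50 kb, classes in which 39.2% and 55.2% of all genes were marked. The product of elav is the pan-neuronal RNA-binding protein that steers splicing and 3' end choice, and fne encodes a close relative found in neurons. The upstream elav summit (chrX:523349-523639) lay 255 bp before the nearest elav start and within 500 bp of a start of lncRNA:enrr, inside an intron of the gene arg. Its signal was 445 in replicate 1 and 314 in replicate 2, ranks 175 and 178 of their ranked lists. The second (chrX:522539-522715, signal 310), in the first intron of the 3 elav transcripts that span it and also over arg and lncRNA:enrr, had 164 and 133. Both elav summits therefore stood high in each library, and no elav candidate failed. The fne summit (chrX:12925939-12926020, signal 168) lay in an intron 8521 bp from the nearest fne start and had 117 in replicate 1 and 61.3 in replicate 2. A further 7 fne candidates failed, at signals up to 84.4. The third relative, Rbp9, had 2 failing candidates, the stronger at 44.5. The Snail-family repressor gene scrt had a single, weak summit 368 bp upstream of its start (chr3L:3983363-3983692, signal 77.4, rank 4671). It reached 59.1 in replicate 1 and 28.4 in replicate 2, where its −log10 IDR was 0.37, and it was missing from the conservative list.

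No passing summit was found at the 4 genes grouped as proneural, all under 5 kb, a length at which 18.2% of all genes were marked. ac, sc, l(1)sc and ase encode the basic helix-loop-helix factors of the achaete-scute complex, of which those of ac, sc and l(1)sc select neural precursors. The 93146 bp from the start of ac to the end of ase (chrX:370031-463176) held 0 passing summits and 6 failing candidates, with a signal of at most 61.2. The X carried 43.5 passing summits per Mb on the whole. The nearest passing summit to the ac span was 10136 bp away, with a signal of 72.9, and the nearest to ase was 13509 bp away, with 103. Within the rule's reach, ac had 1 failing candidate (34.7), l(1)sc had 2 (the stronger 32.6), and sc and ase had none.

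Of the neuroblast transcription factors, pros alone was marked, among 3 genes. It is over 50 kb long and wor and dpn are under 5 kb, classes in which 62.6% and 18.2% of all genes were marked. pros encodes the homeodomain protein that is handed to the ganglion mother cell and ends its self-renewal. Its stronger summit (chr3R:11392834-11393163, signal 126) lay in its 3' UTR, 20211 bp from the nearest pros start, with 69.8 in replicate 1 and 61.9 in replicate 2. The other (chr3R:11338338-11338667, signal 84) lay in the first intron of the 3 transcripts that span it, and had 29.6 in replicate 1 and 55.3 in replicate 2, passing in replicate 2's list alone. It was missing from the conservative list. Beside these, 23 candidates in pros failed. The Snail-family gene wor had 1 failing candidate at its start (47), whose sequence is given above, and dpn, a Hairy-related repressor of the neuroblast, had none.

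Asymmetric division genes held both a strong site and weak ones, and 2 of 3 were marked, against 24.8% of all genes. brat is between 20 and 50 kb, insc between 5 and 20 kb and mira under 5 kb. In these classes 55.2%, 39.2% and 18.2% of all genes were marked. brat encodes a translational repressor that limits growth of the neuroblast's daughter. Its stronger summit (chr2L:19165028-19165272, signal 769) lay in an intron 714 bp upstream of an internal brat start site, with 438 in replicate 1 and 324 in replicate 2, ranks 184 and 170. That places it beside the elav promoter in both libraries. The weaker brat summit (chr2L:19141736-19142065, signal 102) had 64.3 and 33.6 and passed in replicate 1's list alone. insc, which orients the division spindle, had a summit in the first intron of its 1 annotated transcript, which is also covered by the gene sktl (chr2R:20830861-20831190, signal 189), with 106 and 78.1. A second, in the insc 3' UTR (chr2R:20821870-20822199, signal 86.7), had 54 and 35.5 and passed in replicate 1's list alone. mira, the adaptor that carries Prospero and Brat to the daughter cell, had 3 failing candidates, at most 56.3.

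Glial fate genes were unmarked, 0 of 3, and these too are under 5 kb, where 18.2% of all genes were marked. repo, the homeodomain gene of most glia, had 4 failing candidates, the strongest 173 bp upstream of its start (signal 73.8, IDR 0.023), with 39.1 in replicate 1 and 32.3 in replicate 2. gcm, the switch from neuronal to glial fate, had none within reach, and the nearest passing summit was 2667 bp from its span. Its neighbour gcm2 had 2 failing candidates (at most 42.5), and a passing summit of signal 144 lay 1373 bp from its span.

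The 4 vesicle release genes were likewise without a passing summit, against 24.8% of all genes marked, though each had candidates. Syx1A is under 5 kb, nSyb between 5 and 20 kb, and Syt1 and brp between 20 and 50 kb, classes in which 18.2%, 39.2% and 55.2% of all genes were marked. These genes encode the vesicle SNARE protein (nSyb), its calcium sensor (Syt1), the membrane SNARE partner (Syx1A) and the active zone scaffold Bruchpilot (brp). The strongest failing signals were 39.1 at nSyb, 64.5 at Syt1, 45 at Syx1A and 72.9 at brp, which had 16 candidates. The Syt1 candidate, 201 bp upstream of a start, came close to passing (IDR 0.0175). It passed in replicate 1's own list, with a signal of 47.4, and had 17.1 in replicate 2, at a rank of 30419 among 37922. The nearest passing summits outside the rule's reach lay 754 bp from the span of nSyb (signal 97.4) and 696 bp from that of Syx1A (81).

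Among genes of excitability, 1 of 4 was marked, against 24.8% of all genes. Sh, para and cac are over 50 kb and nrv3 is between 5 and 20 kb, classes in which 62.6% and 39.2% of all genes were marked. The potassium channel gene Sh, 138941 bp long, had a single summit (chrX:18004209-18004538, signal 116) in an intron of all 10 transcripts that span it. It had 63.2 in replicate 1 and 47.4 in replicate 2, where its −log10 IDR of 1.92 fell just short of the threshold, and 12 further Sh candidates failed (at most 54). The sodium channel gene para, 78070 bp long, had 4 failing candidates, the strongest in a 3' UTR (76.8, IDR 0.0154). The calcium channel gene cac, 53808 bp long, and the sodium pump subunit gene nrv3 had none.

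Transmitter genes were marked at 2 of 5, against 24.8% of all genes. ChAT is between 20 and 50 kb and the others between 5 and 20 kb, classes in which 55.2% and 39.2% of all genes were marked. ChAT encodes the enzyme that makes acetylcholine, and VAChT, which loads it into vesicles, shares its start and lies inside the ChAT span. The ChAT summit (chr3R:18719865-18720042, signal 314) lay in the first intron of both ChAT transcripts, 1042 bp past the end of VAChT, and 335 bp from a start of lncRNA:CR46265, in an exon of that gene. It had 178 in replicate 1 and 133 in replicate 2, and passed in both. VAChT itself had 2 failing candidates (at most 35.7). In the vesicular glutamate transporter gene VGlut, a summit of signal 112 (chr2L:2402193-2402522) had 62.6 in replicate 1 and 39.8 in replicate 2. The other VGlut interval (chr2L:2402451-2402780, signal 7.07) overlapped it by 72 bp, matched the same replicate peaks and carried the same −log10 IDR of 2.75, so the pair counts as 2 summits only as deposited. Gad1, for GABA synthesis, had 6 failing candidates (at most 30.7), and ple, the tyrosine hydroxylase gene of dopamine synthesis, had 4 (at most 49.5).

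Adhesion and guidance genes held 6 summits, in 3 of 5 genes, against 24.8% of all genes marked. Fas2 and sli are over 50 kb, Nrg and futsch between 20 and 50 kb, and robo1 between 5 and 20 kb. In these classes 62.6%, 55.2% and 39.2% of all genes were marked. Nrg, an L1-type adhesion gene, had 3 summits within introns 20636 to 24441 bp from its nearest start, with signals of 156, 141 and 86.2. In replicate 1 they had 90.6, 81.2 and 44.2, and in replicate 2 they had 59.1, 62.2 and 40.7, so that the weakest did not pass in replicate 2. Fas2, an NCAM-type adhesion gene, had one in an intron 33762 bp from its start (chrX:4172166-4172495, signal 127), with 90.4 in replicate 1 and 36.1 in replicate 2. Its promoter summit (chrX:4205681-4206010, signal 102), 247 bp into the first intron of all 7 transcripts, had 70 and 32.6. An overlapping Fas2 candidate in the 5' UTR, 23 bp from the start, failed (45.1) and matched the same replicate peaks. Neither Fas2 summit passed in replicate 2's list, and the promoter one was missing from the conservative list. sli, which encodes the midline repellent Slit, had one intronic summit (chr2R:15887084-15887235, signal 296) 3752 bp past a start, with nearly equal signals of 149 and 148 in replicates 1 and 2. Its receptor gene robo1 had 2 failing candidates (at most 54.4), and futsch, a MAP1B-like microtubule gene, had 2 (at most 43.5).

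The zinc finger transcription factor gene fru, known for its sex-specific transcripts in the courtship circuit, held the most candidates, 41 along 131314 bp, of which 3 passed. Of all 33870 candidates, 15.2% passed. fru is over 50 kb, a class in which 62.6% of all genes were marked. Its 3 passing summits were all intronic, with signals of 173, 140 and 121. The strongest (chr3R:18508299-18508628) lay 1902 bp upstream of an internal start and had 94.6 in replicate 1 and 82.8 in replicate 2. The others had 68 and 76.8 in replicate 1, and 65.7 and 53.4 in replicate 2, where the one of 65.7 did not pass (−log10 IDR 0.37). A further fru candidate 143 bp upstream of a start failed in the series-wide list (signal 78.1, IDR 0.434) but passed in replicate 1's list, with 50.1 there and 23.8 in replicate 2.

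A wider list of 155 other neuronal genes was counted by the same rule. Of these, 56 were marked (36.1%, against 24.8% of all genes) and 31 had a promoter summit (20%, against 19.4%). Their median span was 18512 bp, and it ran from 3928 bp in the neuroblast and proneural group and 6658 bp in the transmitter group to 38281 bp in the ion channel group. By group, 17 of 30 axon guidance and adhesion genes were marked, 8 of 14 ion channel genes, 9 of 19 regulators of neuronal RNA and transcription, 5 of 10 glial genes, 4 of 9 cytoskeletal genes, 7 of 30 neuroblast and proneural genes, 4 of 21 vesicle and active zone genes and 2 of 22 transmitter genes. The strongest summits were at moody, a receptor gene of the blood-brain barrier glia (signal 1144, 161 bp from a start), in an intron of the potassium channel gene KCNQ (1110), in an intron of mub (1067), in baz, a cell polarity gene (1009, 18693 bp from its nearest start), and at numb, a Notch inhibitor that is itself divided unequally (907, 176 bp from a start). Of the vesicle genes, Nrx-1 (261), Syn (204), comt (127, also near starts of other genes) and Csp (79) were marked. Under 5 kb, 4 of 37 genes of this list were marked (10.8%, 4.29 to 24.7%), against 18.2% of all genes. From 5 to 20 kb, 14 of 42 were marked (33.3%, 21 to 48.4%), against 39.2%. From 20 to 50 kb it was 21 of 49 (42.9%, 30 to 56.7%), against 55.2%, and at 50 kb or more 17 of 27 (63%), against 62.6%.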

How the data were processed

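The data are peak lists from chromatin immunoprecipitation with sequencing of 2 libraries on the dm6 assembly. The authors deposited ranked and thresholded peak lists per library and series-wide, and a conservative series-wide set. Per the notes deposited with the libraries, thresholded lists were derived from 1 file more than ranked ones. Aligner and peak caller: not given in the sources used here. The deposited lists give each peak's signal, the authors' own value, used only to describe and rank peaks within a list. The −log10 of the global IDR is in the deposited ranked lists; passing peaks had at least 2, an IDR of 0.01 or less, and failing candidates were below that. Another 148 ranked peaks reached that value without being in the authors' thresholded list, and 0 of them lay at these genes.

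Summits (start plus summit offset, 1-based) were assigned with Python 3.11.15 and pandas 2.3.3 to genes of Ensembl release 115 without transposable elements, in a procedure tested on simulated data. Replicate values are those of the strongest ranked peak overlapping by at least 1 bp. Shares carry 95% Wilson intervals. No test was made: there is 1 group of samples, and the members and lists were chosen with earlier results of these data known. All 36 members are named; other genes are named where a start site lies within 500 bp of a member's summit, or among the 5 highest signals of their group in the wider list; arg and sktl, which cover summits, were named after values were seen. Read depth is not in the lists, so it is unknown. Alternatives were other lists, windows and start sites.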

Additional observations from a re-analysis of the deposited data

How the results depend on the processing

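Every alternative left between 9 and 14 of the 36 genes marked, against 13 in the report: 12 in the conservative list (without scrt), 11 at an IDR of 0.001 or less (without scrt and VGlut), 12 with a window of 250 bp (without scrt) and 12 without summits shared with another gene's start (without ChAT). Leaving out 1 replicate gave 9 genes and 13 summits without replicate 1, and 14 genes and 29 summits without replicate 2. The shares of all protein-coding genes marked were then 19.3% and 23.9%. The number of genes with a promoter summit, 3 in the report, was 1 with a window of 250 bp, and 1 to 5 when a replicate was left out. Among all protein-coding genes the share with a promoter summit fell from 19.4% to 15.4% with 250 bp. It was 14.8% without replicate 1 and 18.4% without replicate 2. Promoter summits numbered 1 with 250 bp, 5 with 1000 bp, and 1 to 7 when a replicate was left out. With 250 bp, or without summits shared with another gene, the highest signal of elav was 310. The median GC content was 33.3% in the wider window and 26.7 to 29.7% when a replicate was left out. Of the 61 comparisons of counts, shares and medians, 51 stayed within limits set per kind: 1.5 times for a count, the Wilson interval for the intron share, and for the GC median 1 SD over both replicate lists, 2.1 percentage points. That number says little about stability. Changing the window or start sites cannot unmark a gene with a summit inside its span, where 21 of the 23 summits lay. A fall from 3 promoter genes to 2 counted as within limits, and the GC limit came from the replicate medians that it judged. Leaving out the weaker VGlut summit, an alternative chosen after seeing the data, gave 22 summits and the same 13 genes. Signals of single replicates are on their own scale and were not set against the series-wide ones. The cause of these differences was not tested. With 23 summits, shares such as that of introns carry wide intervals. No paired analysis was possible because the libraries form 1 group.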
